A study of Mus musculus with 3 samples.

Results

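The chemokine Cxcl12 and its receptor Cxcr4 were examined in kidney rudiments of Fgfrl1-/- and wildtype mouse embryos. Both genes were chosen because their signals on these arrays differed in opposite directions, Cxcl12 with the higher signal in the Fgfrl1 deficient kidneys and Cxcr4 with the higher signal in the wildtype. Their ratios are therefore given as a description, without a test. The array held 4 oligonucleotide probes for the pair out of 41174 probes, and the pair made up 2 of the 19754 genes to which probes could be assigned. Embryos of strain C57BL/6 were taken at E12.5, when the first nephrogenic structures form, and the knock-out and wildtype animals were littermates. Each of 3 Agilent arrays compared an RNA pool from 6 to 9 Fgfrl1-/- rudiments, labelled with Cy3, with a pool of 6 to 9 wildtype rudiments, labelled with Cy5. Fgfrl1 is a transmembrane receptor of the fibroblast growth factor receptor family without a kinase domain, and the mutant embryos were null for it. With 0 dye-swapped arrays, dye and genotype cannot be told apart in any ratio below. Arrays 2 and 3 shared a slide, whereas array 1 was on a different one and its image was processed with older scanner software. The array numbers follow the labels and carry no order. Whole rudiments were used, and a lower signal from fewer cells of a type cannot be told apart from a lower level of RNA per cell.

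Chemokines are small secreted proteins that bind to receptors with multiple membrane-spanning segments and guide cell movement through G proteins of the inhibitory class. Cxcl12, also called stromal cell-derived factor, is made by mesenchymal and stromal cells and is held near its source by heparan sulphate. Cxcr4 is its signalling receptor. In the developing kidney, Cxcl12 is known from stroma and Cxcr4 from cap mesenchyme and vessels, and the pair is known for its role in the growth of renal blood vessels. The atypical receptor Ackr3 also binds Cxcl12 and removes it from the extracellular space.

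The sequences of the 4 probes are shown because they define what each signal measures. Every probe was 60 bases long and was spotted once, and the positions are those on mm8 that accompany the arrays. For each gene, probe 1 is the one with the higher mean signal. Cxcl12 probe 1 (A_51_P172502) lies at chr6:117146828-117146887 on the plus strand, with a GC content of 35%, and is listed for transcript variant 2 and for 1 further transcript. Cxcl12 probe 2 (A_52_P685021) lies 6693 bp upstream at chr6:117140075-117140134, again with 35% GC, and is listed for transcript variant 1 only. The probes of the ligand are thus listed for different transcript variants. The first 30 bases of each are given here, 5′ to 3′.
Cxcl12 probe 1: aggagaaggcagcttcctatatgcagcgtg
Cxcl12 probe 2: gaattaatcataaacggaagtttaaatgag

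Both probes of Cxcr4 are listed for the same transcript and lie on the minus strand, 520 bp apart. Cxcr4 probe 1 (A_52_P585124) lies at chr1:130416048-130416107 with 40% GC. Cxcr4 probe 2 (A_52_P565353) lies upstream of it at chr1:130416628-130416687 with 45% GC, and none of its 3 reading frames holds a stop codon. It is printed whole, and probe 1 from base 27 to base 56, where the capitals mark the letters AATAAA of the common polyadenylation signal.
Cxcr4 probe 1: tgtggtaaattgAATAAAgctagccgtgat
Cxcr4 probe 2: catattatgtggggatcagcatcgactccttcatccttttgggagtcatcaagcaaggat
These letters occur on the printed strand of 1 of the 4 probes and of 4.78% of all probes, and on the other strand of 0 of the 4 and of 4.25% of all. Exon and untranslated parts were not looked up, since a gene annotation of mm8 was not used here.

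The brightness of the receptor spots is given first, before any correction. Cxcr4 probe 1 gave median signals of 212, 152 and 176.5 scanner units for Fgfrl1-/- on the 3 arrays in turn, against 455, 624.5 and 638 in the wildtype channel. Cxcr4 probe 2 gave 151, 75 and 84 units in the Fgfrl1-/- channel, against 283, 277.5 and 255 in the wildtype channel. For both receptor probes the 3 Fgfrl1-/- signals lay below the 3 wildtype signals, with no overlap. The wildtype channel was also the brighter over all probes, with medians of 97, 110 and 104.5 units against 94, 59 and 66, which do not overlap either. The share of all probes without overlap was not counted, so nothing is read from the lack of overlap.

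For the ligand the uncorrected signals of the genotypes overlapped. Cxcl12 probe 1 gave 26844, 21167 and 30259.5 units in the Fgfrl1-/- channel and 18373, 31927 and 29660 in the wildtype channel. Cxcl12 probe 2 gave 1878.5, 1810 and 2709 units in the Fgfrl1-/- channel and 705.5, 2193 and 2133 in the wildtype channel. On arrays 1 and 3 both ligand probes were brighter in the Fgfrl1-/- channel, and on array 2 both were brighter in the wildtype channel. The local background beneath the 4 probes was 15 to 29 units for Cy3 and 44 to 60 units for Cy5. All 4 probes were well above background for both dyes on each of the 3 arrays, and no spot of them was saturated or marked as an outlier.

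**Figure D1:**
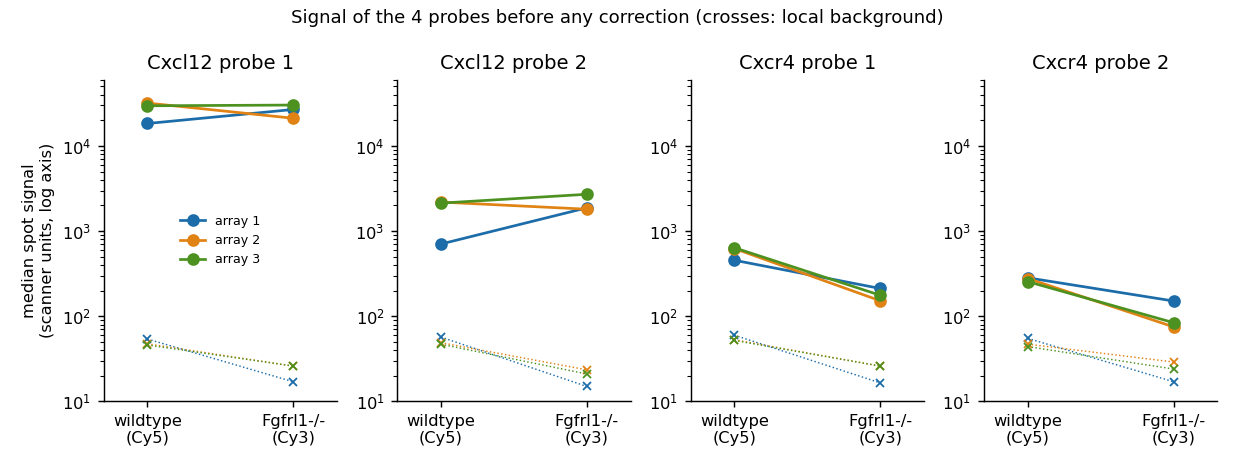
Median spot signal in scanner units on a log axis for each of the 4 probes, wildtype channel on the left and Fgfrl1-/- channel on the right, with 1 coloured line per array. Crosses with dotted lines are the local backgrounds. The lines of both Cxcr4 probes fall from wildtype to Fgfrl1-/- on all 3 arrays, whereas those of Cxcl12 run in different directions before normalization.

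The channels themselves differed in brightness. The median signal over all probes was 94, 59 and 66 units for Fgfrl1-/- on the 3 arrays in turn, and 97, 110 and 104.5 units in the wildtype channel. A ratio is thus interpretable only after the channels of an array have been put on a common scale, which was done by loess. This method removes, within an array, the trend of the log2 ratio with brightness.

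After loess, the signal of Cxcl12 was higher in the Fgfrl1-/- (Cy3) channel on every array. The log2 ratio of Fgfrl1-/- over wildtype for Cxcl12 probe 1 was 0.62, 0.86 and 0.75 on arrays 1, 2 and 3, with a mean of 0.74 ± 0.12 (SD, n = 3), or 1.67-fold. Cxcl12 probe 2 gave log2 ratios of 1.23, 0.97 and 0.90, with a mean of 1.03 ± 0.18 (SD, n = 3), or 2.04-fold. All 6 ratios of the ligand were above 0. The ratios rest on the arrays alone, since measurements of the pair by other methods were not analysed here. Probe 2 exceeded probe 1 by a log2 ratio of 0.61 on array 1 but by 0.11 and 0.15 on arrays 2 and 3.

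After loess, the signal of Cxcr4 was lower in the Fgfrl1-/- (Cy3) channel on every array. Cxcr4 probe 1 gave log2 ratios of -1.18, -0.84 and -1.23, with a mean of -1.08 ± 0.21 (SD, n = 3), which is 2.12-fold lower. Cxcr4 probe 2 gave -0.96, -0.77 and -0.87, with a mean of -0.86 ± 0.095 (SD, n = 3), or 1.82-fold lower. All 6 ratios of the receptor were below 0, and array 2 had the smallest difference for both probes. Over all 19754 genes, 22.6% had a ratio above 0 on 3 of 3 arrays and 20.6% had a ratio below 0 on 3 of 3 arrays. These shares are the background of the counts given for the pair, from which nothing can be read because the pair was chosen on this contrast.

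**Figure D2:**
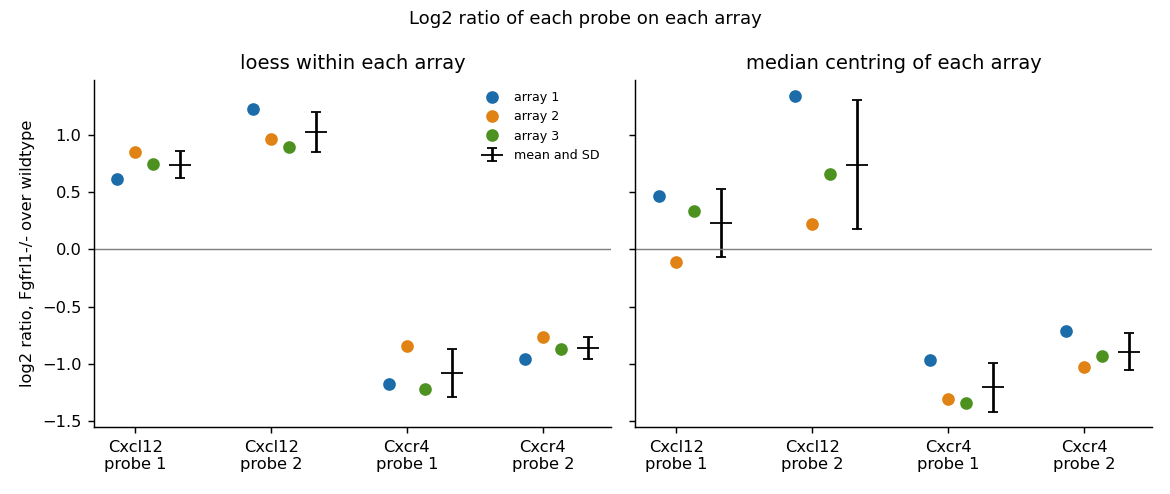
Log2 ratio of Fgfrl1-/- over wildtype for the 4 probes, with 1 point per array and the mean with its SD over 3 arrays, after loess (left) and after centring each array on its median (right). With loess all 6 points of Cxcl12 lie above 0 and all 6 of Cxcr4 below 0, while with median centring 1 point of Cxcl12 probe 1, that of array 2 at -0.11, lies below 0.

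The slides did not differ in the direction of either gene. On array 1, alone on its slide, Cxcl12 probe 1 had a log2 ratio of 0.62, against a mean of 0.80 over arrays 2 and 3 on the other slide. The values for Cxcr4 probe 1 were -1.18 and -1.03. With each slide weighted equally, the log2 ratio was 0.71 for Cxcl12 and -1.11 for Cxcr4.

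Among all probes of an array, those of the pair stood near the ends of the distribution of ratios after loess. A higher ratio than that of Cxcl12 probe 1 was found for 4.59%, 0.189% and 0.250% of the probes on arrays 1, 2 and 3, and a higher one than that of Cxcl12 probe 2 for 0.539%, 0.114% and 0.102%. A lower ratio than that of Cxcr4 probe 1 was found for 0.0850%, 0.306% and 0.0972% of the probes, and a lower one than that of Cxcr4 probe 2 for 0.199%, 0.474% and 0.299%. With each gene represented by its brightest probe, the mean ratio of Cxcl12 ranked 77 from the top and that of Cxcr4 ranked 35 from the bottom of 19754 genes. These positions follow from the choice of the pair on this contrast and are a description. With centring on the array median instead, 13.3%, 55.4% and 3.09% of the probes had a higher ratio than Cxcl12 probe 1. For Cxcl12 probe 2 these shares were 0.668%, 35.3% and 0.185%. The shares with a lower ratio were then 0.121%, 0.802% and 0.0996% for Cxcr4 probe 1, and 0.430%, 4.76% and 0.469% for probe 2.

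The size of the Cxcl12 ratio depended on the step that puts the channels on a common scale, and more so for probe 1 than for probe 2. When each array was only centred on its median, the log2 ratios of Cxcl12 probe 1 became 0.46, -0.11 and 0.34, with a mean of 0.23 ± 0.30 (SD, n = 3). Those of Cxcl12 probe 2 became 1.35, 0.22 and 0.66, with a mean of 0.74 ± 0.57 (SD, n = 3). On array 2, probe 1 of the ligand thus changed sign, and 55.4% of all probes then had a higher ratio than it. Spots as bright as Cxcl12 probe 1 were rare, since its signal stood above percentile 99 of each array, and there loess added 0.16, 0.97 and 0.41 to the median-centred log2 ratios.

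The receptor was less affected. With median centring, Cxcr4 probe 1 gave log2 ratios of -0.96, -1.31 and -1.35, with a mean of -1.21 ± 0.21 (SD, n = 3), and Cxcr4 probe 2 gave -0.72, -1.03 and -0.94, with a mean of -0.89 ± 0.16 (SD, n = 3). The receptor spots were of medium brightness, at the percentiles 69.0 to 69.7 for probe 1 and 59.6 to 64.0 for probe 2. Brightness depends on the sequence of a probe, so that these percentiles do not compare the amounts of the transcripts. Cxcr4 remained below 0 on all 3 arrays with either scaling.

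**Figure D3:**
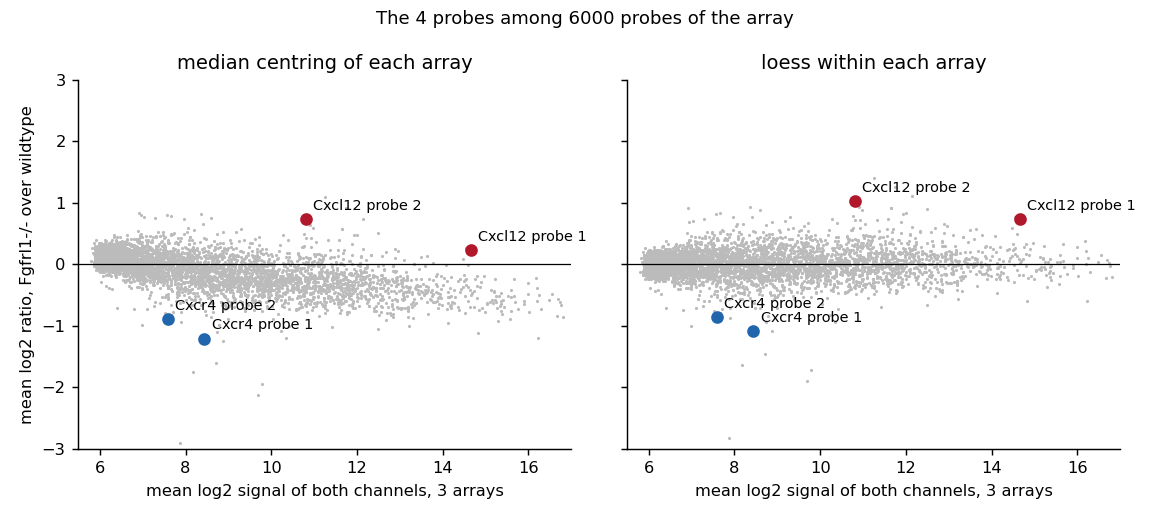
Mean log2 ratio of Fgfrl1-/- over wildtype against the mean log2 signal of both channels over 3 arrays, after median centring (left) and after loess (right). Grey points are 6000 probes drawn at random and coloured points the 4 probes of Cxcl12 (red) and Cxcr4 (blue). Without loess the grey cloud slopes below 0 for bright probes, and Cxcl12 probe 1, among the brightest, stands at 0.23 instead of 0.74.

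Ligand and receptor were then set against each other within each array. The log2 ratio of Cxcl12 probe 1 minus that of Cxcr4 probe 1 was 1.80, 1.70 and 1.97 on arrays 1, 2 and 3, with a mean of 1.82 ± 0.14 (SD, n = 3). Expressed as a fold, the ratio of ligand to receptor was 3.54 times that of the wildtype. All 12 differences, from the 4 pairs of a ligand and a receptor probe on 3 arrays, were above 0 and ranged from 1.58 to 2.41. With median centring all 12 stayed above 0, the lowest at 0.92. An offset common to all probes of an array cancels in this difference, whereas a trend with brightness does not. The sign of the difference follows from the way the pair was chosen.

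Other ways of computing the ratios gave the same direction of the means. The ratios of the scanner software, which subtracts its own background and normalizes the dyes, were 0.88, 0.92 and 0.82 for Cxcl12 probe 1 and -1.48, -1.10 and -1.50 for Cxcr4 probe 1 on the log2 scale. The software gave an error of 0.22 to each of the former and 0.23 to 0.25 to the latter. In the log2 table deposited by the authors, the values were 0.66, 0.83 and 0.75 for Cxcl12 probe 1, and -1.55, -0.90 and -1.20 for Cxcr4 probe 1. Over 15 alternatives, some of which cannot change these ratios, the mean of Cxcl12 ran from 0.23 to 0.89 and that of Cxcr4 from -1.36 to -0.97.

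**Figure D4:**
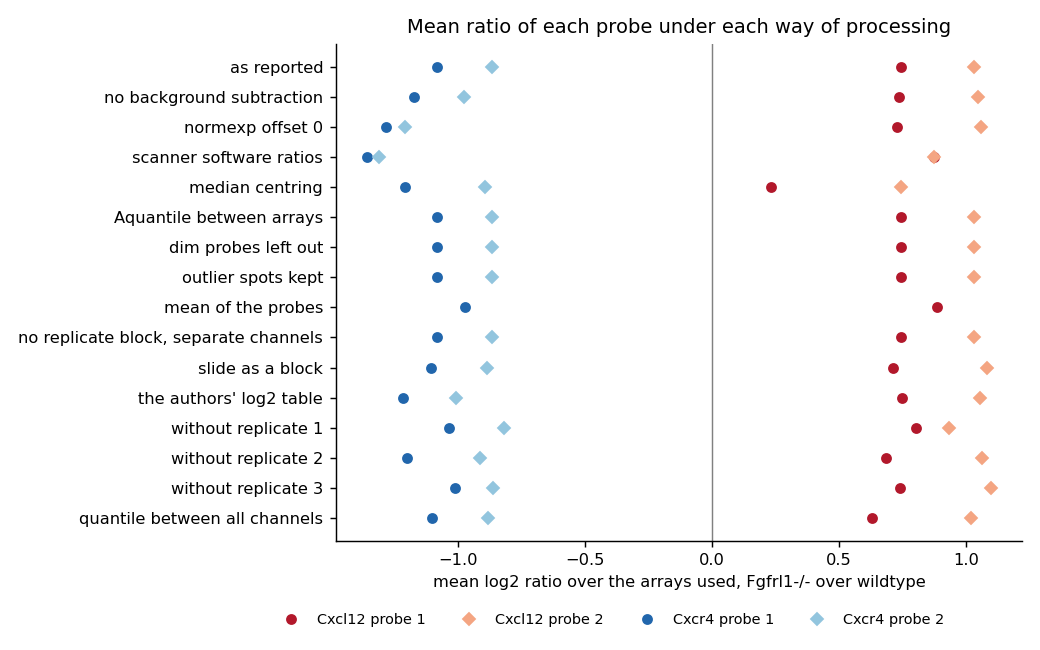
Mean log2 ratio of Fgfrl1-/- over wildtype for each probe of Cxcl12 (red) and Cxcr4 (blue) as reported and under each alternative way of processing, circles for probe 1 and diamonds for probe 2. No mean crosses 0, and Cxcl12 probe 1 comes closest, at 0.23 with median centring.

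The genes whose ratios on the 3 arrays lay nearest to those of the pair were sought among 13162 genes that were well above background for both dyes on every array. Nearest to Cxcl12 was Ntm, a neuronal cell adhesion molecule, with log2 ratios of 0.57, 0.82 and 0.74 and a distance of 0.062. The next were Akr1c14, an aldo-keto reductase of steroid metabolism, with 0.68, 0.84 and 0.81, and Adamts9, a secreted metalloproteinase, with 0.52, 0.87 and 0.75. Nearest to Cxcr4 was Etv4, a transcription factor of the Ets family that responds to fibroblast growth factor and Ret signalling, with log2 ratios of -1.25, -0.74 and -1.16 and a distance of 0.140. It was followed by Ism1, a secreted protein, with -1.13, -1.0 and -1.13, and by the kinase gene Bmp2k, with -1.34, -0.80 and -1.05. The likeness covers 3 values of 1 probe per gene only. As the mean of their probes, the log2 ratios were 0.34 for Ntm, 0.41 for Adamts9, -0.54 for Ism1 and -0.28 for Bmp2k. Etv4, Ism1 and Bmp2k stand, like Cxcr4, in the list of reduced genes that the study chose on these arrays.

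The remaining genes of the pathway were tested with limma across the 3 arrays, with p-values adjusted after Benjamini and Hochberg over all 19754 genes. At an adjusted p below 0.05, 1.70% of all genes were lower and 1.96% were higher in the Fgfrl1 deficient kidneys, and the median log2 ratio of all genes was 0.007. At an unadjusted p below 0.05, 9.74% of all genes were lower and 11.3% were higher, which is the background of the unadjusted counts given for the lists. As a check of the labels, the log2 ratio of Fgfrl1 itself was -1.21, -1.51 and -1.83, with a mean of -1.52 ± 0.31 (SD, n = 3, limma adjusted p = 0.011). It passed without array 1 or array 2 but not without array 3. Its only probe was still above background in the Fgfrl1-/- channel of all arrays, and whether it lies in the deleted part is not given in the sources used here. The samples of each genotype are separate pools, and p-values measure the spread between 3 arrays.

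Of 8 genes whose products meet Cxcl12 or Cxcr4 outside the cell, 1 fell, 1 rose and 6 did not pass by limma's adjusted p. At an unadjusted p below 0.05, 3 were lower and 2 higher, and the median log2 ratio was 0.015. The gene that fell was Cxcl14, a chemokine reported to bind Cxcr4, with log2 ratios of -1.0, -1.12 and -0.83, a mean of -0.99 ± 0.15 (SD, n = 3) and a limma adjusted p of 0.012. It also stands in the list of reduced genes that the study chose on these arrays, so that this is not independent evidence. The gene that rose was Mmp2, a matrix metalloproteinase able to cleave Cxcl12, with 0.51, 0.87 and 0.63, a mean of 0.67 ± 0.18 (SD, n = 3) and a limma adjusted p of 0.028. Cxcl14 and Mmp2 lost the call when array 2 or array 3 was left out.

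Ackr3, the other receptor of Cxcl12, had log2 ratios of 0.37, 0.29 and 0.26, with a mean of 0.31 ± 0.058 (SD, n = 3) and a limma adjusted p of 0.076. It passed in 2 of 17 alternatives, namely without array 1 and with slides weighted equally, and its mean was -0.017 with median centring. Dpp4, a peptidase that inactivates Cxcl12, had a mean log2 ratio of 0.040 ± 0.19 (limma adjusted p = 0.870). The cytokine Mif, a second ligand of Cxcr4, had 0.028 ± 0.0095 (limma adjusted p = 0.877), and its receptor Cd74 had 0.0019 ± 0.18 (limma adjusted p = 0.994). Hmgb1, a nuclear protein that forms a complex with Cxcl12 when released, had -0.19 ± 0.085 (limma adjusted p = 0.226). Sdc4, a heparan sulphate proteoglycan of the cell surface, had -0.39 ± 0.37 (limma adjusted p = 0.194). Without array 1, Hmgb1 and Sdc4 passed as lower, with mean log2 ratios of -0.24 and -0.58.

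Inside the cell, 22 genes of G proteins, receptor kinases, arrestins and effectors of Cxcr4 were measured. Of these, 1 rose, 0 fell by limma's adjusted p and 21 did not pass, with 2 higher and 2 lower at an unadjusted p below 0.05 and a median log2 ratio of 0.034. The gene that rose was Grk3, a kinase that phosphorylates activated receptors and ends their signalling. Its log2 ratios were 0.72, 0.34 and 0.55, with a mean of 0.54 ± 0.19 (SD, n = 3, limma adjusted p = 0.044). It passed in 7 of 17 alternatives and did not pass without array 2 or array 3. As the mean of its probes Grk3 had a log2 ratio of 0.24 and did not pass.

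Of the other chemokines, 35 of 37 could be assigned to a probe, and 7 of these were not above background on any array. Cxcl14 fell and none rose by limma's adjusted p, with 2 lower and 5 higher at an unadjusted p below 0.05 and a median log2 ratio of 0.045. Of 22 other chemokine receptors, 0 fell and 0 rose by limma's adjusted p, with 0 and 1 at an unadjusted p below 0.05 and a median of 0.037. Only 4 of the 22 were above background for both dyes on every array. Ackr4, a scavenging receptor singled out after its values were seen, had a mean log2 ratio of -1.14 that came from array 1 alone, with -3.46, -0.047 and 0.082, and it was above background on 1 array (limma adjusted p = 0.414).

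Both Cxcl12 and Cxcr4 are induced by low oxygen in many cells, and 12 genes of that response were therefore counted. Of these, 3 rose, 0 fell by limma's adjusted p and 9 did not pass, with 4 higher and 2 lower at an unadjusted p below 0.05 and a median log2 ratio of 0.067. Bnip3, which directs mitochondria to degradation, rose by 0.44 ± 0.11 (SD, n = 3, limma adjusted p = 0.047) on the log2 scale. Ndrg1, a stress-responsive gene, rose by 0.47 ± 0.068 (limma adjusted p = 0.035). Pdk1, a kinase that restrains the entry of pyruvate into mitochondria, rose by 0.48 ± 0.050 (limma adjusted p = 0.033). Bnip3 passed in 5 of 17 alternatives, and Ndrg1 and Pdk1 in 10 of 17 each. With median centring the mean log2 ratios of Bnip3, Ndrg1 and Pdk1 were 0.14, 0.25 and 0.23. Means below 0 were found for Egln3 (-0.20), Adm (-0.20), Ldha (-0.13) and Slc2a1 (-0.076). None of them passed limma's adjusted p, and they are named after their values were seen. The main transcription factor of the response, Hif1a, and its target Vegfa were named after their values were seen, with mean log2 ratios of 0.058 and 0.17 (limma adjusted p = 0.826 and 0.630).

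Over the 97 measured genes of these lists together, 1 was lower and 5 were higher. Without array 1 these counts were 12 and 14, whereas without array 2 or without array 3 they were 0 and 0 by limma's adjusted p, with 2 lower and 13 higher, and 2 lower and 10 higher, at an unadjusted p below 0.05. With median centring they were 2 lower and 0 higher, with 10 and 1 at an unadjusted p below 0.05. Over the whole array, 2257 of 19751 genes were lower and 2439 higher without array 1. The whole-array counts were 38 and 11 without array 2, 8 and 0 without array 3, and 305 and 17 with median centring. They are the background of such counts here and for each list below. Arrays 2 and 3 resembled each other across genes, with a Pearson's r of 0.77, against 0.28 and 0.32 between array 1 and each of them.

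**Figure D5:**
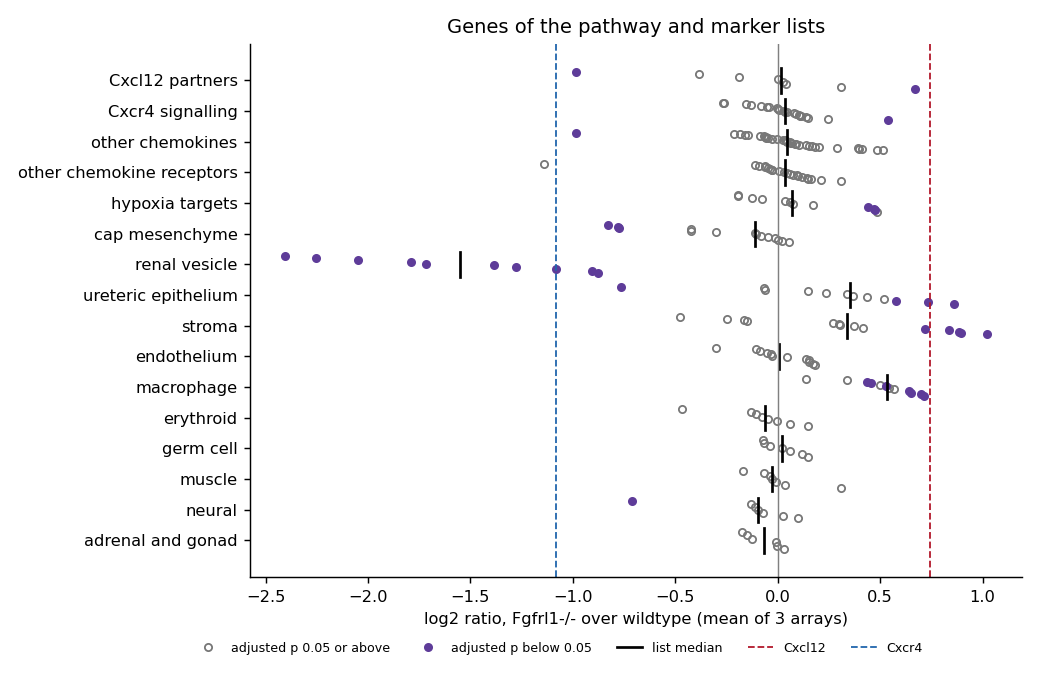
Mean log2 ratio of Fgfrl1-/- over wildtype over 3 arrays for each gene of the pathway lists and of the cell type marker lists, 1 point per gene, filled where limma's adjusted p was below 0.05. Black bars are list medians and dashed lines the ratios of Cxcl12 (red) and Cxcr4 (blue). The 10 renal vesicle genes, all from the study's list of reduced genes, lie below 0, and 5 stroma and 7 macrophage genes are filled above 0.

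The cell types that are known to carry the pair were followed by their markers, since the rudiments were not separated into cells. Stroma, the known source of Cxcl12, was represented by 14 genes, all above background for both dyes on every array. Of these, 5 rose, 0 fell by limma's adjusted p and 9 did not pass, with 8 higher and 1 lower at an unadjusted p below 0.05 and a median log2 ratio of 0.34. Foxd1, the transcription factor that defines cortical stroma, had a mean log2 ratio of 0.90 ± 0.29 (limma adjusted p = 0.026). The receptor gene Pdgfra had 1.02 ± 0.093 (limma adjusted p = 0.0091). The collagen gene Col1a1 had 0.84 ± 0.18 (limma adjusted p = 0.017), the matrix gene Dcn had 0.89 ± 0.27 (limma adjusted p = 0.024) and the guidance gene Ntn1 had 0.72 ± 0.31 (limma adjusted p = 0.044). Col1a1 is among the raised genes that the study chose on these arrays, so that its rise is not independent evidence. Means below 0 were found for Tcf21 (-0.48), Pdgfrb (-0.25), Acta2 (-0.16) and Tbx18 (-0.15), none of which passed and which are named after their values were seen.

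The normalized signals of the 14 stroma genes summed to 171152 to 208538 units in the Fgfrl1-/- channels and 129791 to 141169 in the wildtype channels. Such a sum, here and for the lists below, was taken after loess and a further scaling of mean log2 signals between arrays. It is led by its brightest probes and does not measure transcript amounts. Col1a1, the brightest of the 14, had a mean log2 ratio of 0.84 after loess and 0.29 with median centring. A sum over all genes was not made for comparison. The count of stroma genes that rose depended, like the ratio of Cxcl12, on the scaling. With median centring 0 stroma genes rose and 1 fell by limma's adjusted p (3 higher and 3 lower at an unadjusted p below 0.05), and the list median was -0.028. Without array 1, 8 rose and 3 fell. Without array 2, Pdgfra alone rose, and without array 3, 0 rose, with 8 higher at an unadjusted p below 0.05. The part of the stroma signal in the ratio of Cxcl12 was not tested.

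Cap mesenchyme, in which Cxcr4 is known, was represented by 14 genes, all above background for both dyes on every array. Of these, 3 fell, 0 rose by limma's adjusted p and 11 did not pass, with 6 lower and 0 higher at an unadjusted p below 0.05 and a median log2 ratio of -0.11. The genes that fell were Cited1, a marker of uninduced progenitors, with a mean log2 ratio of -0.78 ± 0.19 (limma adjusted p = 0.020), Gdnf, the growth factor that attracts the ureteric bud, with -0.83 ± 0.18 (limma adjusted p = 0.017), and Itga8, an integrin subunit, with -0.78 ± 0.057 (limma adjusted p = 0.013). Gdnf and Itga8 are in the study's list of reduced genes from these arrays, so that their fall is not independent evidence. The summed signal of the 14 genes was 28020 to 33553 units in the Fgfrl1-/- channels and 36840 to 40381 in the wildtype channels. Without array 1, 6 of the genes fell, and with median centring 5 fell. Without array 2 or array 3, 0 fell, with 6 lower at an unadjusted p below 0.05 each time.

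Endothelium, the other known site of Cxcr4, was represented by 12 genes, all above background. Of these, 0 passed limma's adjusted p in either direction, with 1 lower and 0 higher at an unadjusted p below 0.05 and a median log2 ratio of 0.0068. Their summed signal was 18709 to 25855 units in the Fgfrl1-/- channels and 20794 to 23319 in the wildtype channels, which overlap. Without array 1, 1 of the 12 fell. A direct measure of Cxcr4 in either cell type was not available, and the part of the cap mesenchyme signal in the ratio of Cxcr4 was not tested.

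The renal vesicle, the first epithelial stage of the nephron, was represented by 10 genes. All of them are in the study's list of reduced genes from these same arrays, so that the direction was set by the choice of the list and the values are a description. The median log2 ratio was -1.55, with -2.40 ± 0.34 (SD, n = 3) for Wnt4, the inducer of the epithelial transition, and -1.72 ± 0.082 (SD, n = 3) for Lhx1, a transcription factor of the vesicle. The summed signal was 2195 to 3228 units in the Fgfrl1-/- channels and 7850 to 8561 in the wildtype channels, and its part in the ratio of Cxcr4 was not tested.

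Of 12 macrophage genes, 7 rose, 0 fell by limma's adjusted p, with 11 higher and 0 lower at an unadjusted p below 0.05, and the median log2 ratio was 0.53. The genes that rose were Csf1r, Cd68, Ptprc, C1qa, C1qb, C1qc and Lyz2, with mean log2 ratios of 0.44 to 0.71. Their list summed to 7388 to 11865 units in the Fgfrl1-/- channels and 5377 to 6355 in the wildtype channels, and its part in either ratio was not tested. Without array 1, 11 rose, and without array 2 or array 3, 0 rose, with 11 and 10 higher at an unadjusted p below 0.05. With median centring 0 rose, with 4 at an unadjusted p below 0.05.

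Of 12 genes of the ureteric epithelium, 3 rose and 1 fell by limma's adjusted p, with 8 higher and 1 lower at an unadjusted p below 0.05. The median log2 ratio was 0.35. Wnt9b, Krt18 and Tfcp2l1 rose by 0.73, 0.58 and 0.86 on the log2 scale, and Wnt11, a tip gene, had a ratio of -0.76, while the tip receptor Ret was not above background on any array. Tfcp2l1 is among the raised genes that the study chose on these arrays, so that its rise is not independent evidence. Without array 1, 8 rose and 1 fell, and without array 2 or array 3, 0 rose and 0 fell by limma's adjusted p, with 5 higher and 1 lower at an unadjusted p below 0.05 each time. With median centring 0 rose and 1 fell, with 2 and 1 at an unadjusted p below 0.05.

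Markers of cells that a dissected rudiment could also hold gave few calls. None of 8 erythroid, 7 germ cell, 7 muscle and 6 adrenal and gonad genes passed limma's adjusted p, and the count at an unadjusted p below 0.05 was 1 for erythroid genes and 0 for each of the others. Of 7 neural genes, Elavl4 fell, with a mean log2 ratio of -0.71 ± 0.33 (limma adjusted p = 0.049), and the other 6 did not pass. Elavl4 did not pass without array 2 or array 3. Without array 1, 2 erythroid genes fell and 1 rose, 1 muscle gene rose and 1 adrenal and gonad gene fell. The germ cell markers Dazl and Sycp3, the muscle markers Myf5 and Pax3 and the steroidogenic marker Cyp11a1 were not above background on any array.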

How the data were processed

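RNA of 3 pools of Fgfrl1-/- rudiments (Cy3) and 3 pools of wildtype rudiments (Cy5) was hybridized to 3 two-colour Agilent arrays, 600 ng per labelling. Images were quantified by the authors with Agilent Feature Extraction. The version was 10.5.1.1 on arrays 2 and 3 but 9.5.3.1 on array 1, per the file headers, whereas the submitters' processing notes name version 10. The authors deposited the median intensity of every spot and of its local background, measured by this software without normalization, besides intensities that it had background-subtracted and dye-normalized. From the latter the software had computed the deposited log10 ratios, Cy5 over Cy3. The error of each ratio, a score of the same software, and flags were deposited too. The authors also deposited a log2 table made with R and Bioconductor. Its scale and direction, Fgfrl1-/- over wildtype, were found by comparison with the scanner ratios (r of 0.705, 0.718 and 0.706), its column medians are -0.018, 0 and 0.003, and its centring and normalization are not given in the sources used here.

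Median intensities were corrected with normexp (offset 50) and normalized within arrays by loess in limma 3.58.1 (R 4.3.3). For the summed signals of the lists, mean log2 signals were also scaled between arrays by Aquantile, which leaves the ratios unchanged. Flagged outlier spots (107, 113 and 138 on the 3 arrays, none saturated) were left out, replicate spots were averaged, and the brightest probe stood for its gene. Of 41174 probes, 33116 received a gene name from RefSeq (GRCm38.p6, for naming alone) and 8058 did not. The probes well above background were 57.1% to 80.2% of all for Cy3 and 60.9% to 64.9% for Cy5, and precision is limited by the small number of arrays. Log2 ratios were tested against 0 with lmFit and eBayes (2-sided), paired by array, with Benjamini-Hochberg adjustment. The scripts were tested on simulated data. The members and lists were chosen with earlier results of these data known. Named were both members, the extracellular partners, other listed genes with an adjusted p below 0.05, Fgfrl1, and for each member the 3 genes with the smallest Euclidean distance over the arrays. Alternatives were another background correction, offset, starting signal, scaling, filter, probe rule, variance model, slide weighting, a fit of separate channels, the deposited table and each array left out. A probe's local sequence was read from the deposited output.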

Additional observations from a re-analysis of the deposited data

How the results depend on the processing

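The log2 ratio of Cxcl12 stayed above 0 and that of Cxcr4 below 0 under all 15 alternatives that give them a value. Some of these could not move the ratios, which stayed at 0.74 and -1.08. They were the scaling of mean log2 signals between arrays, the filter of dim probes, the outlier spots kept and the fit of separate channels. The signs follow from the choice of the genes on this contrast. Cxcl12 (0.74 as reported) moved by more than its SD to 0.23 with median centring, 0.89 as an average of both probes and 0.87 with the scanner ratios. Cxcr4 moved to -1.36 with the scanner ratios. Its second probe (-0.86) moved in 4 of 14 alternatives, among them to -1.31 with the scanner ratios and -1.21 with a normexp offset of 0. The difference between Cxcl12 and Cxcr4 (1.82) moved to 2.01 with a normexp offset of 0 and 2.23 with the scanner ratios. It moved to 1.44 with median centring and 1.96 with the authors' log2 table. Leaving out 1 array gave 0.68 to 0.80 for Cxcl12 and -1.20 to -1.01 for Cxcr4. With 3 arrays such a shift cannot exceed the SD, so it was not set against it.

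Counts of genes past the threshold depended more on the processing than the ratios of the pair did. Of all genes, 336 were lower and 387 higher. These counts were 0 and 0 in limma with an offset of 0 (1564 and 1714 at an unadjusted p below 0.05) and with the scanner ratios (1871 and 1977), 143 and 110 with all probes tested, 2705 and 3226 with slides weighted equally, 157 and 113 with the authors' table, and 305 and 17 with median centring. With quantile normalization of all channels, chosen after seeing the data, 275 were lower and 214 higher. Leaving out 1 array gave 8 to 2257 lower and 0 to 2439 higher genes. The highest counts came without array 1, and without array 3 the counts were 8 and 0 (1026 and 1233 at an unadjusted p below 0.05).

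For the 97 pathway genes (1 lower, 5 higher), limma passed 0 and 0 with an offset of 0 and with the scanner ratios (8 and 16, and 9 and 13, at an unadjusted p below 0.05), 9 and 19 with slides weighted equally, and 2 and 0 with median centring. The higher count was 0 with all probes tested and with the authors' table (14 and 16 at an unadjusted p below 0.05), and 3 both with trended robust variances and with quantile normalization. Leaving out 1 array gave 0 to 12 lower and 0 to 14 higher. The cause of these changes was not tested.

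The arrays pair the pools. A fit of separate channels keeps this pairing through an intraspot correlation of 0.517, and no fit without the pairing was run. In the fit of separate channels, 364 genes were lower and 433 higher. The pathway counts were 1 and 6, and the ratios of the pair were 0.74 and -1.08. Of the pathway genes called, Bnip3 and Mmp2 did not pass in that fit.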
